A study of Homo sapiens with 16 samples.

Results

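The genes described here are 10 genes of apolipoproteins and lipoprotein assembly. They are the apolipoprotein genes APOA1, APOA2, APOB, APOC1, APOC3, APOE, APOH and APOM, and the assembly genes MTTP and TM6SF2. They were taken by name from a table of 26258 genes, and all 10 were among the 15019 genes that reached 1 CPM, a read count scaled to a common library total, in at least 2 libraries and were tested. Polyadenylated RNA of Huh7 and Hep3B cells, both established human hepatocellular carcinoma (HCC) lines, was sequenced in 16 libraries. Each line was represented by 4 groups of 2 libraries. Parental cells and cells labelled DMSO, the usual solvent of the drug, are both given as untreated in the labels. IR cells had been raised in increasing concentrations of the multi-kinase inhibitor Sorafenib and CR cells in a constantly high one, and both are labelled with 7 µM Sorafenib at sampling. The resistant cells were thus in the drug when they were collected, so that resistance and drug exposure cannot be told apart here. Whether an IR or CR line is 1 clone or a pool was not given in the sources used here, nor was how long the DMSO cells had been kept in the solvent. The study's methods name biological triplicates, but the labels give 2 replicates and do not say whether these are separate cultures. P-values then measure only the spread between these samples, which may be technical.

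Lipoproteins carry triglyceride and cholesterol through the blood in particles held together by apolipoproteins, and the liver makes most of these proteins. MTTP, the microsomal triglyceride transfer protein, loads lipid onto nascent APOB in the endoplasmic reticulum, which starts a very low density lipoprotein (VLDL) particle, and TM6SF2 takes part in adding further lipid to it. APOA1 and APOA2 are the main structural proteins of high density lipoprotein (HDL), and APOM is a minor HDL protein that carries sphingosine-1-phosphate. APOC1, APOC3 and APOE are exchangeable proteins that move between particles and set how fast these are hydrolysed and taken up. APOH, also called beta-2-glycoprotein I, is a phospholipid-binding plasma protein made by hepatocytes. The nuclear receptor HNF4A is a well-known activator of several of these genes in liver.

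On GRCh37, the build of the authors' alignment, APOC3 (chromosome 11, 116700422 to 116703788, plus strand) and APOA1 (116706467 to 116708338, minus strand) lie side by side, and APOE (chromosome 19, 45409048 to 45412650) and APOC1 (45417504 to 45422606) are neighbors on the plus strand. APOB lies on chromosome 2 (21224301 to 21266945), MTTP on chromosome 4 (100485238 to 100545154), APOA2 on chromosome 1 (161192082 to 161193421), APOM on chromosome 6 (31620193 to 31625987) and APOH on chromosome 17 (64208151 to 64252643). TM6SF2 lies on chromosome 19 (19375173 to 19384200), far from the APOE cluster. RefSeq promoter windows of GRCh38.p14, from 250 bases before to 50 bases after a transcript start, were on hand for 7 of the 10 genes (10 windows). The letters CAAAGTCCA of the HNF4 motif, with up to 1 mismatch on either strand, were found in 3 of these windows, those of MTTP, APOM and APOE, and in 6.97% of the 35116 windows of all genes. The HIF core ACGTG was found in 1 of them, that of APOC1, and in 21.4% of all windows. The 250 bases before the start are shown for MTTP at its second start (chr4:99574574-99574823, plus strand) and for APOM (chr6:31655644-31655893, plus strand), which were both called lower in every resistant group, with the HNF4 match in capitals.
MTTP: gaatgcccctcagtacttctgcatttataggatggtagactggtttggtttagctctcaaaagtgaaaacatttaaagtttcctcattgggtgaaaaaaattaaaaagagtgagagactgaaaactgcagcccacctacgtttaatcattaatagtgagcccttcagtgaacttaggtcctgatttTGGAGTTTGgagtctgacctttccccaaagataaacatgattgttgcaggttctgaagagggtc
APOM: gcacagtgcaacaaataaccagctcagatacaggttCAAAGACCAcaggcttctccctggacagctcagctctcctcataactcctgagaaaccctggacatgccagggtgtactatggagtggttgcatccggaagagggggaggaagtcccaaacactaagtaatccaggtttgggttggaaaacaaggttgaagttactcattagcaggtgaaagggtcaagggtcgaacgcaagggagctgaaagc
In the MTTP window the HNF4 match lies on the minus strand and spans bases -64 to -56, counted back from the start. In APOM the match CAAAGACCA spans bases -214 to -206. The APOE match, at the last of its starts, lies on the minus strand and spans -54 to -46. A match describes the letters and was not tested as a binding site.

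The libraries held 46613302 to 76860251 reads, recovered from the steps of the CPM values. Across all genes the replicates of a group correlated with Pearson's r of 0.987 to 0.998 on log2(CPM + 1), and no pair agreed within sampling noise. Of 16 hepatocyte markers, 16 in Huh7 parental and 15 in Hep3B parental cells had a mean of at least 1 CPM, with summed levels of 14850 to 17440 and 16060 to 18320 CPM. A change was called when its adjusted p from limma, fitted to log2(CPM + 1) over all groups, was below 0.05 and its log2 fold change at least 0.58 in size. The median change of all genes was 0.19 in Huh7-IR cells with CPM and 0.040 with TMM scaling. The called changes given below are larger than this shift, while differences that were not called can be of its size.

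Messenger RNA of most of the 10 genes fell in the resistant cells of both lines, with larger median changes in Huh7. TM6SF2 did not fall in Hep3B. The 10 genes were chosen with earlier results of these data known. Shares of all genes beside their counts are thus background and no test of the set. In Huh7-IR cells all 10 genes were called lower, where 17.8% of all genes tested were. In Huh7-CR cells 9 of 10 were called lower against 13.6% of all genes, and TM6SF2 did not pass. In Hep3B-IR cells 7 of 10 were called lower against 11.4%, and in Hep3B-CR cells 8 of 10 against 12.3%. None of the 10 was called higher in a resistant group by limma, edgeR or DESeq2, while limma called 31.1%, 20.9%, 15.7% and 20% of all genes higher in these groups. The median log2 fold change of the 10 genes was -3.88 and -3.34 in IR and CR cells of Huh7 and -1.93 and -1.58 in those of Hep3B, while that of all genes was 0.19, 0.066, 0.061 and 0.11. APOA1, APOA2, APOM, APOC1, APOC3, APOH and MTTP were called lower in all 4 comparisons, as were 2.88% of all genes, and the 4 comparisons share their parental libraries within a line. In Hep3B-IR cells edgeR called 5 and DESeq2 6 of the 10 genes, and APOA1 (adjusted p = 0.0702 and 0.0835) and, in edgeR, APOM (adjusted p = 0.0544) did not pass there. In bulk RNA, fewer cells of a type and less RNA per cell cannot be told apart.

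**Figure D1:**
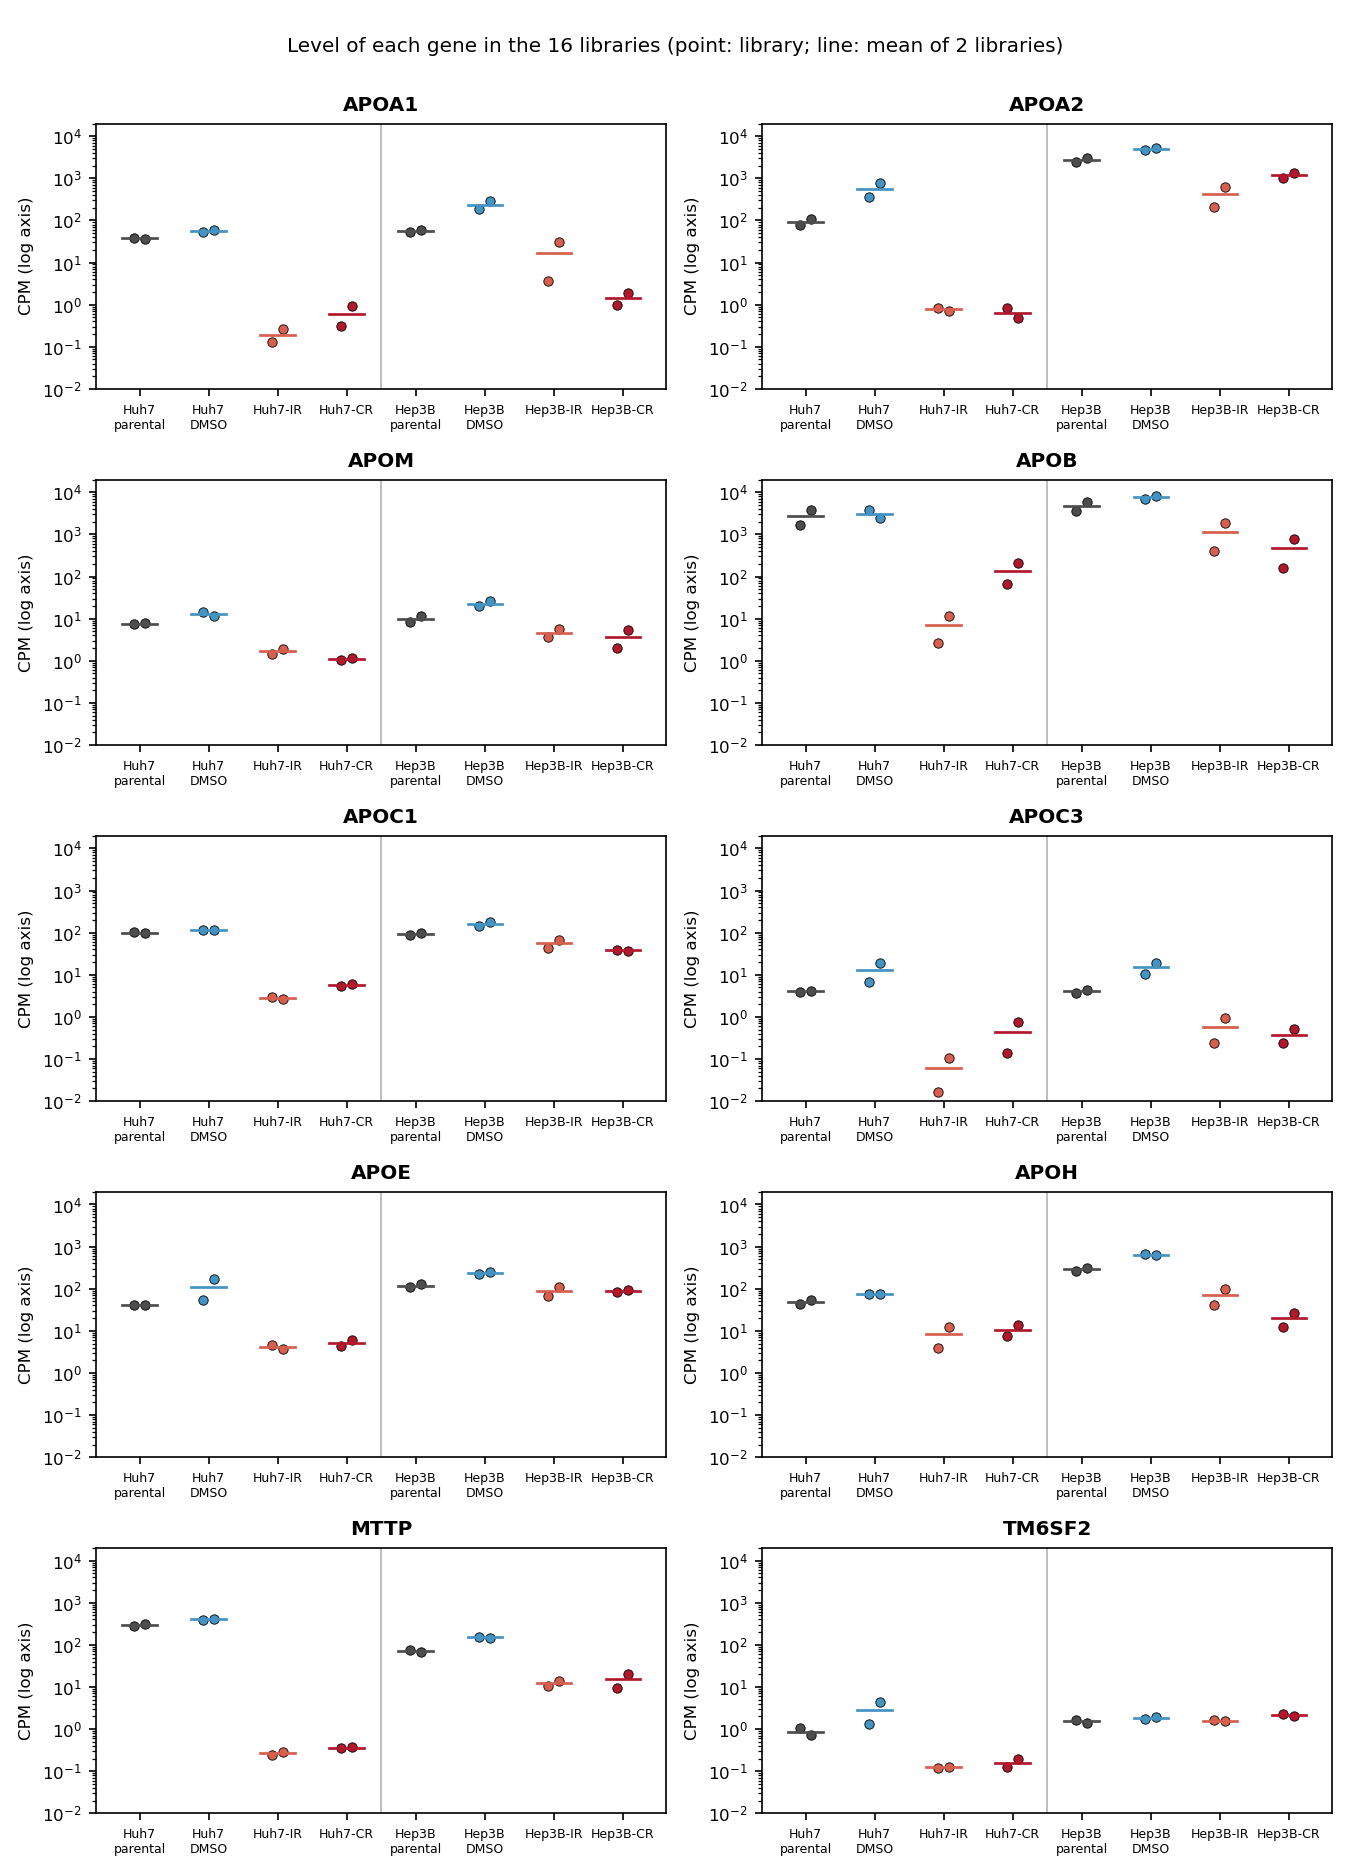
CPM (log axis) of each gene in each of the 16 libraries, with 1 panel per gene, points for libraries and lines for the mean of 2. In Huh7 the IR and CR points lie below the parental points in all 10 panels, and in Hep3B in 9 panels, with TM6SF2 as the exception.

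Summed over the 10 genes, 2224 and 4513 CPM in Huh7 parental cells compare with 16.8 and 33.9 CPM in Huh7-IR and 85.1 and 236 CPM in Huh7-CR cells. In Hep3B the sums were 6649 and 9569 CPM in parental, 778 and 2822 CPM in IR and 1305 and 2335 CPM in CR cells. These sums are led by APOB in most groups. Without it the Huh7 sums were 593 and 659 CPM in parental cells and 14.2 to 29.5 CPM in the 4 resistant libraries, and the Hep3B sums 3052 and 3655 CPM in parental cells and 377 to 1561 CPM in the 4 resistant ones. In each line the 4 resistant libraries lay below both parental libraries for all 10 genes in Huh7, a pattern of 24.9% of all genes, and for 9 of 10 in Hep3B, a pattern of 22% of all genes.

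Of the HDL apolipoproteins, APOA1 was at 38.7 and 36.9 CPM in Huh7 parental, 0.133 and 0.257 CPM in Huh7-IR and 0.309 and 0.916 CPM in Huh7-CR libraries. In Hep3B it was at 52.3 and 60.3 CPM in parental, 3.73 and 30.6 CPM in IR and 1.01 and 1.85 CPM in CR libraries. The main HDL protein was thus below 2 CPM in 3 of the 4 resistant groups, while the IR libraries of Hep3B lay apart from each other and both below the parental ones. Its log2 fold changes were -5.02 (SE 0.61, adjusted p = 2.79e-05) in Huh7-IR, -4.61 in Huh7-CR, -2.22 (adjusted p = 0.0149) in Hep3B-IR and -4.58 (adjusted p = 0.000136) in Hep3B-CR cells.

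APOA2, the second HDL protein, was at 78.7 and 109.8 CPM in Huh7 parental, 0.829 and 0.708 CPM in Huh7-IR and 0.819 and 0.484 CPM in Huh7-CR libraries. In Hep3B it was far more abundant, at 2449 and 2966 CPM in parental, 204 and 627 CPM in IR and 992 and 1372 CPM in CR libraries. The ranges did not overlap in either line, and the lowest Hep3B-IR library still lay above every Huh7 parental library. The log2 fold changes were -5.73 (SE 0.43) in Huh7-IR, -5.84 in Huh7-CR, -2.91 (adjusted p = 0.000357) in Hep3B-IR and -1.21 (adjusted p = 0.0436) in Hep3B-CR cells. APOM was lower by 1.70 and 2.03 on the log2 scale in Huh7-IR and Huh7-CR cells, from 7.41 and 7.92 CPM in the parental to 1.05 to 1.95 CPM in the resistant libraries. In Hep3B, APOM fell by 0.94 in IR (adjusted p = 0.0409) and by 1.28 in CR cells (adjusted p = 0.00776), from 8.18 and 11.4 CPM to between 2.04 and 5.77 CPM.

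APOB, the structural protein of VLDL and low density lipoprotein, had the highest mean CPM of the 10 genes in both parental lines, and its long mRNA collects more reads per molecule than the others. It was at 1631 and 3853 CPM in Huh7 parental, 2.65 and 11.5 CPM in Huh7-IR and 64.8 and 207 CPM in Huh7-CR libraries. In Huh7-IR cells the mean was thus 389-fold lower than in parental cells, with a log2 fold change of -8.54 (SE 0.87, adjusted p = 7.9e-06), and in Huh7-CR cells 20.2-fold lower, with -4.42 (adjusted p = 0.00169). In Hep3B it was at 3597 and 5914 CPM in parental, 401 and 1867 CPM in IR and 163 and 774 CPM in CR libraries. The change in Hep3B-CR cells passed the test (-3.69, adjusted p = 0.00567), and that in Hep3B-IR cells did not (-2.41, 95% interval -4.31 to -0.51, adjusted p = 0.0524), although both IR libraries lay below both parental ones. The Hep3B-IR change passed with a pseudocount of 4 CPM (adjusted p = 0.0470), a filter at 5 CPM (0.0492) or a correction for GC content (0.0439). It did not pass with edgeR, DESeq2, TMM or quantile scaling. Over all alternatives this log2 fold change ran from -3.52 to -1.30. Replicates of APOB differed by more than those of any other gene of the 10 on the log2 scale, as its SE of 0.87 shows.

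Of the exchangeable apolipoproteins, APOC1 was at 102 and 98.5 CPM in Huh7 parental, 2.97 and 2.66 CPM in Huh7-IR and 5.36 and 6.14 CPM in Huh7-CR libraries. Its replicates were close, and the log2 fold changes were -4.73 (SE 0.18, adjusted p = 4.64e-09) and -3.91 (adjusted p = 3.11e-08). In Hep3B the same gene fell by 0.76 in IR (adjusted p = 0.00795) and by 1.29 in CR cells (adjusted p = 0.000241), from 86.9 and 100.5 CPM in parental to 44.2 and 68.0 CPM in IR and 39.4 and 36.2 CPM in CR libraries. APOC1 has a pseudogene copy in its cluster, and since the authors kept uniquely mapped reads, reads shared with the copy are not in these values.

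APOC3, an inhibitor of triglyceride clearance, was at low levels in parental and resistant cells. It was at 3.91 and 4.11 CPM in Huh7 parental and 3.73 and 4.39 CPM in Hep3B parental libraries, and below 1 CPM in all 8 resistant libraries, with as few as 1 and 5 reads in the Huh7-IR libraries. In DMSO cells it was at 6.87 and 19.1 CPM in Huh7 and 10.6 and 19.2 CPM in Hep3B. Its log2 fold changes in resistant cells ran from -2.24 (Huh7-IR) to -1.71 (Hep3B-IR), with adjusted p-values of 0.000461 to 0.006. A pseudocount of 1 CPM understates the change of a gene at this level, and the mean CPM was 64.8-fold lower in Huh7-IR, 9.07-fold in Huh7-CR, 6.97-fold in Hep3B-IR and 10.8-fold in Hep3B-CR cells.

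APOE, the ligand of lipoprotein receptors for remnant particles, passed the test in both Huh7 groups and in neither Hep3B group, and the difference between the lines is tested further on. It was at 41.3 and 40.2 CPM in Huh7 parental, 4.63 and 3.65 CPM in Huh7-IR and 4.36 and 5.93 CPM in Huh7-CR libraries, with log2 fold changes of -3.03 and -2.78 (SE 0.39, adjusted p = 4.54e-05 and 0.000158). In Hep3B it was at 110 and 127 CPM in parental, 67.2 and 109 CPM in IR and 83.2 and 94.9 CPM in CR libraries. All 4 resistant libraries lay below the parental ones, but the log2 differences of -0.47 (95% interval -1.32 to 0.39, adjusted p = 0.406) and -0.41 (-1.26 to 0.44, adjusted p = 0.441) did not pass. After correction for GC content the Hep3B-CR difference was -0.87 with an adjusted p of 0.0471. The mRNA of APOE is the richest in G and C of the 10 (69.0%).

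APOH was at 43.7 and 54.6 CPM in Huh7 parental, 3.81 and 12.7 CPM in Huh7-IR and 7.73 and 13.5 CPM in Huh7-CR libraries. In Hep3B it was at 263 and 314 CPM in parental, 41.7 and 97.8 CPM in IR and 12.2 and 27.1 CPM in CR libraries. No resistant library reached a parental one in either line. Its log2 fold changes were -2.62 and -2.15 in IR and CR cells of Huh7 and -2.15 and -3.90 in those of Hep3B (SE 0.49, adjusted p = 9.31e-05 for the last).

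MTTP, without which APOB is not loaded with lipid, showed the largest mean change of the 10 genes. It was at 277 and 307 CPM in Huh7 parental, 0.249 and 0.279 CPM in Huh7-IR and 0.356 and 0.366 CPM in Huh7-CR libraries. These are 13 to 28 reads against 19004 and 22889 reads in the parental libraries, so that the mean CPM was 1105-fold lower in Huh7-IR and 808-fold lower in Huh7-CR cells. The log2 fold changes on the scale with a pseudocount were -7.85 (SE 0.25, adjusted p = 1.35e-09) and -7.75 (adjusted p = 2.76e-09). In Hep3B, MTTP was at 76.5 and 69.2 CPM in parental, 10.7 and 14.1 CPM in IR and 9.69 and 20.6 CPM in CR libraries, with log2 fold changes of -2.47 and -2.28 (adjusted p = 2.16e-05 and 3.72e-05). Resistant Hep3B cells thus still held 12.4 and 15.2 CPM of MTTP on average.

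TM6SF2 had the lowest CPM of the 10 genes in both parental lines. It was at 1.03 and 0.710 CPM in Huh7 parental and between 0.116 and 0.196 CPM in the 4 resistant Huh7 libraries (6 to 15 reads). The difference passed in Huh7-IR cells (-0.73, adjusted p = 0.0437) and not in Huh7-CR cells (-0.69, adjusted p = 0.0733). Leaving out any of the 4 libraries ended the Huh7-IR call, with log2 fold changes of -0.86 to -0.61. That call was also lost with a pseudocount of 4 CPM, without the filter, with the Huh7 libraries alone and with replicate number as a block. On the recovered reads, which need no pseudocount, edgeR and DESeq2 both called TM6SF2 lower in Huh7-IR cells. For Huh7-CR cells edgeR gave -2.51 with an adjusted p of 0.00263. In Hep3B it was at 1.67 and 1.39 CPM in parental, 1.63 and 1.52 CPM in IR and 2.26 and 2.08 CPM in CR libraries, differences of 0.028 (95% interval -0.59 to 0.65) and 0.33 (-0.29 to 0.95) that did not pass, and the sign of the former turned with TMM or quantile scaling.

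**Figure D2:**
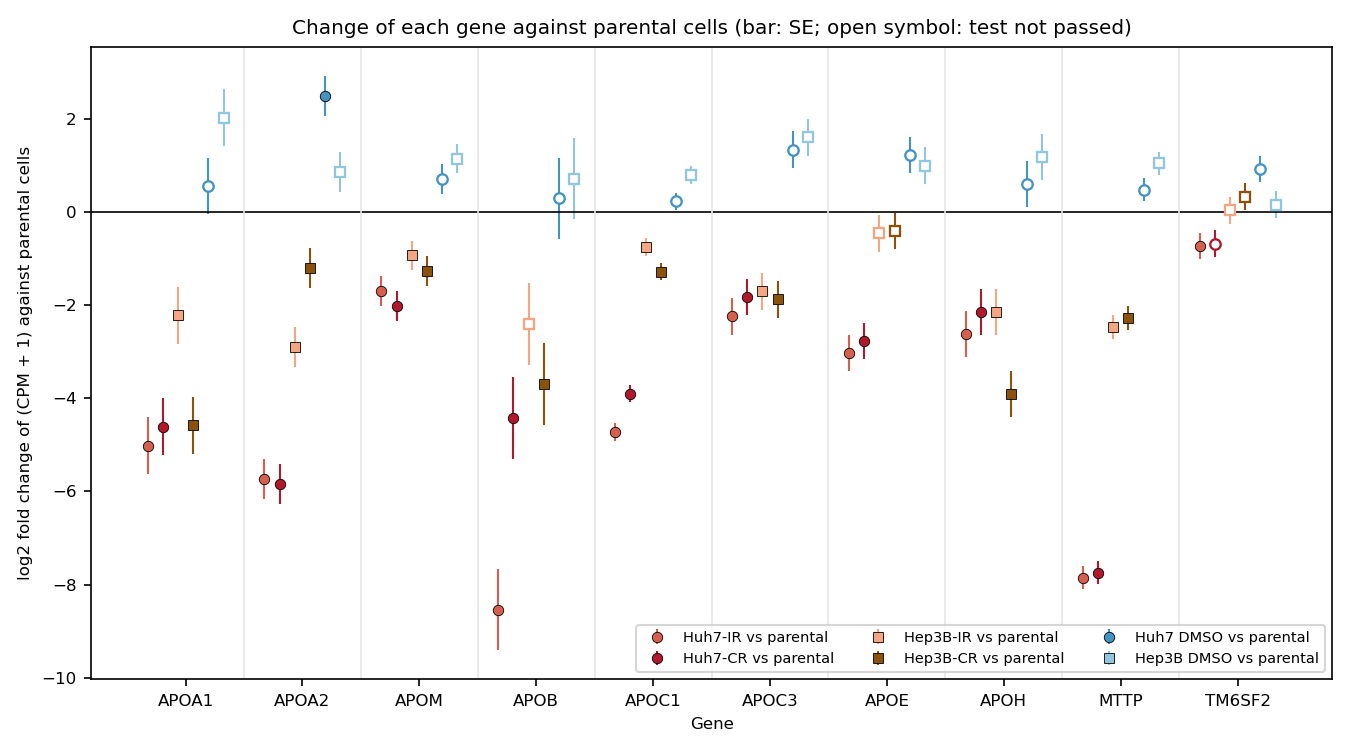
Log2 fold change of (CPM + 1) against parental cells for each gene, in resistant cells (red and brown) and DMSO cells (blue), with circles for Huh7 and squares for Hep3B. Bars are SE, and open symbols did not pass the test. All called changes of resistant cells lie below 0, and all 20 DMSO values lie above it.

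Some of the Hep3B calls rest on single libraries. Without replicate 1 of Hep3B-IR, 2 of 10 genes were called in Hep3B-IR cells (APOA2 and MTTP), and APOA1, APOM, APOC1, APOC3 and APOH had adjusted p-values of 0.0672 to 0.276. The APOA1 change was then -0.86 in place of -2.22, and that of APOC1 -0.45 in place of -0.76. Without replicate 2 or 1 of the parental cells 4 and 5 genes were called, and without replicate 2 of Hep3B-IR 8 genes were, now with APOB (-3.52, adjusted p = 0.0218). A fit of only the 4 Hep3B-IR and parental libraries called 4 genes. In Hep3B-CR cells, 5 genes were called without replicate 1 of Hep3B-CR or replicate 2 of the parental cells, when APOA2, APOM and APOB did not pass (adjusted p = 0.0504 to 0.214). APOA2 in Hep3B-CR cells also lost its call without replicate 1 of the parental cells (adjusted p = 0.0917) or replicate 2 of Hep3B-CR (0.0739). In both resistant Huh7 groups 9 genes were called whichever library was left out.

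Per kilobase of transcript, which allows levels of different genes to be compared, APOA2 led in Hep3B parental cells with 5713 CPM per kb, followed by APOB with 337, APOH with 246, APOC1 with 182 and APOE with 102 CPM per kb. In Huh7 parental cells APOA2, APOC1 and APOB stood together at 199, 195 and 194 CPM per kb, and MTTP followed with 74.4 CPM per kb. In Huh7-IR cells APOH at 7.02, APOC1 at 5.47 and APOE at 3.55 CPM per kb were the highest, and MTTP at 0.0673 CPM per kb was the lowest. In the resistant Hep3B groups APOA2 still led, at 877 and 2494 CPM per kb. Lengths are those of the canonical transcript and ignore other isoforms.

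The fall was deeper in Huh7 than in Hep3B for 5 of the 10 genes. Averaged over IR and CR cells, the change was -7.80 in Huh7 and -2.37 in Hep3B for MTTP, a difference of -5.43 (SE 0.31, adjusted p = 2.84e-07). For APOA2 the changes were -5.79 and -2.06 (difference -3.73, adjusted p = 0.000291), for APOC1 -4.32 and -1.02 (difference -3.30, adjusted p = 1.09e-06) and for APOE -2.90 and -0.44 (difference -2.46, adjusted p = 0.00231). For APOB they were -6.48 and -3.05 (difference -3.43, adjusted p = 0.0285). Of all genes tested, 13.1% were called lower in this contrast. The difference did not pass for APOA1 (-1.42), APOM (-0.76), APOC3 (-0.24), APOH (0.64) and TM6SF2 (-0.89, adjusted p = 0.0729). A pseudocount holds back genes near 0 in Huh7, and edgeR on the recovered reads also called APOA1 (-3.32, adjusted p = 0.022) and TM6SF2 (-2.95, adjusted p = 0.00386).

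**Figure D3:**
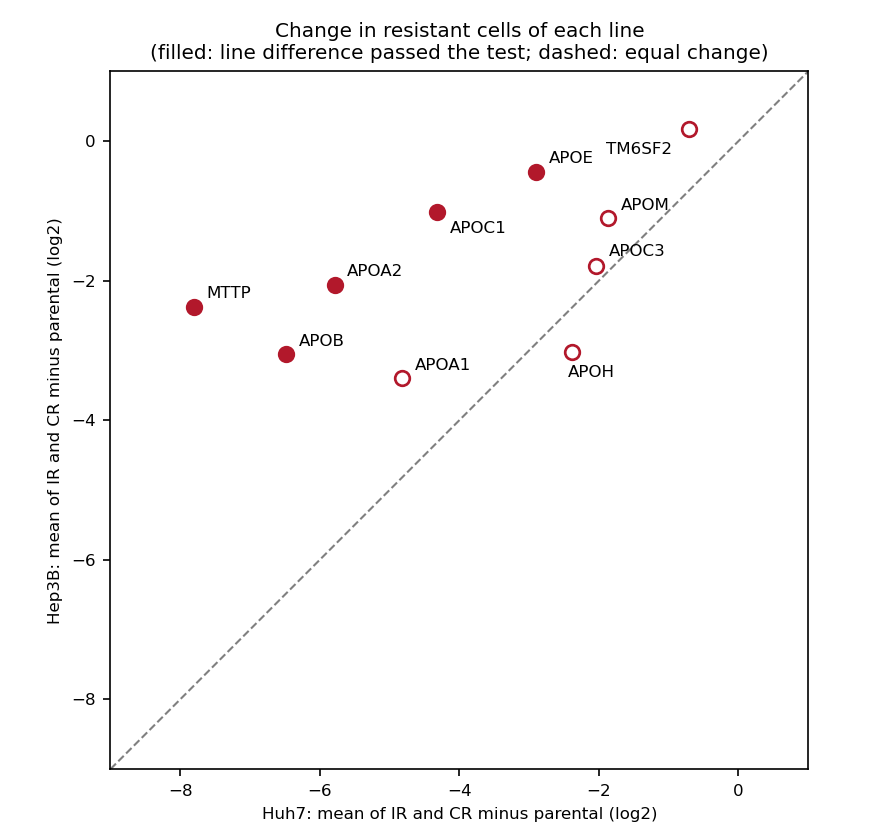
Mean log2 change of IR and CR cells against parental cells in Huh7 (x axis) and Hep3B (y axis), 1 point per gene, with filled points where the line difference passed the test and a dashed line of equal change. MTTP, APOB, APOA2, APOC1 and APOE lie farthest above the line among the called genes, and APOH lies below it.

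The APOB difference between the lines was the least stable. It lost its call without replicate 1 or 2 of the Hep3B parental cells, replicate 2 of the Huh7 parental cells, replicate 1 of Huh7-IR or Huh7-CR, or replicate 2 of Hep3B-IR or Hep3B-CR, with log2 differences of -3.79 to -2.81 and adjusted p-values of 0.0501 to 0.133. APOA1 gained a call without replicate 1 of Hep3B-IR (-2.10, adjusted p = 0.00105), and APOM without replicate 1 of Hep3B-CR (-1.02, adjusted p = 0.0331).

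The DMSO cells, listed as untreated like the parental cells, stood on the other side of the parental cells for these genes. All 10 log2 differences of DMSO against parental cells were above 0 in both lines, with medians of 0.65 in Huh7 and 1.01 in Hep3B against 0.054 and 0.0053 for all genes. APOA2 was called higher in Huh7 DMSO cells, at 363 and 759 CPM (log2 difference 2.49, adjusted p = 0.00973), among 3.46% of all genes. It lost that call without replicate 2 of the DMSO cells (1.96, adjusted p = 0.105) or replicate 1 of the parental cells (2.25, adjusted p = 0.0855). Without replicate 1 of the Huh7 DMSO cells the log2 differences of APOC3, APOE and TM6SF2 were 2.01, 2.04 and 1.53. With both replicates they were 1.33, 1.22 and 0.91. In Hep3B none of the 10 was called by limma at an adjusted p, where 1.07% of all genes were called higher. An unadjusted limma p below 0.05 was found for 7 of 10, edgeR called 0 and DESeq2 called 2. Shares of all genes by these other rules were not counted, so the 7 of 10 cannot be set against the 1.07%. Both Hep3B DMSO libraries lay above both parental libraries for all 10 genes, as for 32.3% of all genes, and in Huh7 for 9 of 10, as for 28.7%. The highest values included APOA1 at 184 and 289 CPM and APOH at 677 and 619 CPM in Hep3B DMSO cells. The summed hepatocyte markers moved alongside, at 26740 to 31630 CPM in Huh7 DMSO and 28270 to 33140 CPM in Hep3B DMSO libraries, and their part in the result was not tested.

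With the DMSO libraries as the reference instead, each change was lower by the difference of DMSO from parental cells in the same fit. All of these differences were above 0, so the downward shift is not a separate observation. All 10 genes were then called lower in both resistant groups of Huh7, and 9 in each of Hep3B, where 18.7%, 15.9%, 14.8% and 13.4% of all genes were. APOE was called in both Hep3B groups against this reference (-1.45 and -1.40, adjusted p = 0.0113 and 0.0134), and so was APOB in Hep3B-IR cells (-3.12, adjusted p = 0.0138), while TM6SF2 remained near 0 (-0.13 and 0.17). The call for APOE in Hep3B thus depends on which untreated group is taken. The line difference was called for 6 genes with this reference, now with TM6SF2 (-1.65, adjusted p = 0.00344), and the share of all genes called was not counted. The line differences of APOA1 and APOC3 were then 0.049 and 0.033.

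The ways of raising resistance were compared within each line. In Huh7, APOB was lower in IR than in CR cells (-4.12, SE 0.87, adjusted p = 0.0109) and so was APOC1 (-0.82, adjusted p = 0.0138), where 5.43% of all genes were called lower in IR cells. The APOB call was lost without replicate 1 of Huh7-IR (-3.23, adjusted p = 0.0616), and both were lost without replicate 2 of Huh7-CR (adjusted p = 0.103 for each). DESeq2 on the recovered reads also called APOC3 lower in Huh7-IR than in Huh7-CR cells (-3.05, adjusted p = 0.0109), where limma gave -0.41 with an adjusted p of 0.508. MTTP differed by -0.11 (95% interval -0.65 to 0.44) and APOA2 by 0.11 (-0.84 to 1.05), with both genes below 1 CPM in all 4 libraries. In Hep3B, APOA1 (2.35, adjusted p = 0.0252) and APOH (1.75, adjusted p = 0.0351) were higher in IR than in CR cells, where 5.33% of all genes were called higher, and APOA2 (-1.70, adjusted p = 0.0235) was lower, where 6.41% were. APOA1 lost its call without replicate 2 of Hep3B-IR (0.99, adjusted p = 0.122), or replicate 1 (2.10, 0.133) or 2 (2.61, 0.0829) of Hep3B-CR. APOH lost it without replicate 2 of Hep3B-IR (1.15, 0.291) or replicate 1 of Hep3B-CR (1.21, 0.231), and APOA2 without replicate 1 of Hep3B-IR (-0.89, 0.167) or either replicate of Hep3B-CR (-1.94, 0.0614 and -1.47, 0.162). Without replicate 1 of Hep3B-IR APOC1 gained a call (0.83, adjusted p = 0.0174), and without replicate 1 of Hep3B-CR MTTP did (-0.70, adjusted p = 0.0472). Without the filter on low values none of the 3 Hep3B calls remained.

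The parental lines differed before any drug. Against Hep3B, Huh7 parental cells had less APOA2 (-4.84, adjusted p = 1.98e-06), APOH (-2.53, adjusted p = 0.00101) and APOE (-1.52, adjusted p = 0.00636), where 23.7% of all genes were called lower, and more MTTP (1.99, adjusted p = 3.82e-05), where 18.9% were called higher. With 3 of 10 lower and 1 of 10 higher, the counts were near the shares of all genes. These 4 calls held in every alternative run. APOC1 and APOC3 differed by 0.097 (95% interval -0.31 to 0.50) and -0.010 (-0.87 to 0.85).

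Both apolipoprotein clusters were followed with their neighbors. In the chromosome 19 cluster APOC2, the activator of lipoprotein lipase and no member of the 10, was called lower in all 4 resistant groups, with log2 fold changes of -5.98 and -5.74 in IR and CR cells of Huh7 and -1.32 and -2.56 in those of Hep3B. It was at 69.7 and 60.6 CPM in Huh7 parental libraries and at 0.0332 and 0.0644 CPM in Huh7-IR libraries. The flanking genes behaved otherwise. NECTIN2 and CLPTM1 were called in none of the 4 groups (differences of -0.51 to 0.37), TOMM40 was lower in Huh7-CR (-0.65) and Hep3B-IR cells (-0.61), and RELB, an NF-kappaB subunit, was higher in Huh7-IR (2.20), Huh7-CR (1.40) and Hep3B-CR cells (0.98). APOC4 did not reach the level for testing.

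In the chromosome 11 cluster APOC3 and APOA1 fell in all 4 groups, and none of the tested neighbors did so. ZPR1 was called in none of the 4 groups, APOA5 was too low to be tested, and APOA4 was at or below 1.86 CPM in every library and was called higher in Huh7-CR cells (0.90). SIK3 was lower in Huh7-CR cells (-0.75). TAGLN, which codes for the actin-binding protein transgelin, was higher in all 4 resistant groups, by 3.91, 5.40, 3.27 and 2.84 on the log2 scale. SIDT2 was higher in Huh7-IR (1.51), Huh7-CR (1.08) and Hep3B-CR cells (0.99). PCSK7 was higher in Huh7-IR cells (0.79), but its transcripts overlap TAGLN on the other strand, and without knowing whether counting used the strand, their reads cannot be told apart.

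**Figure D4:**
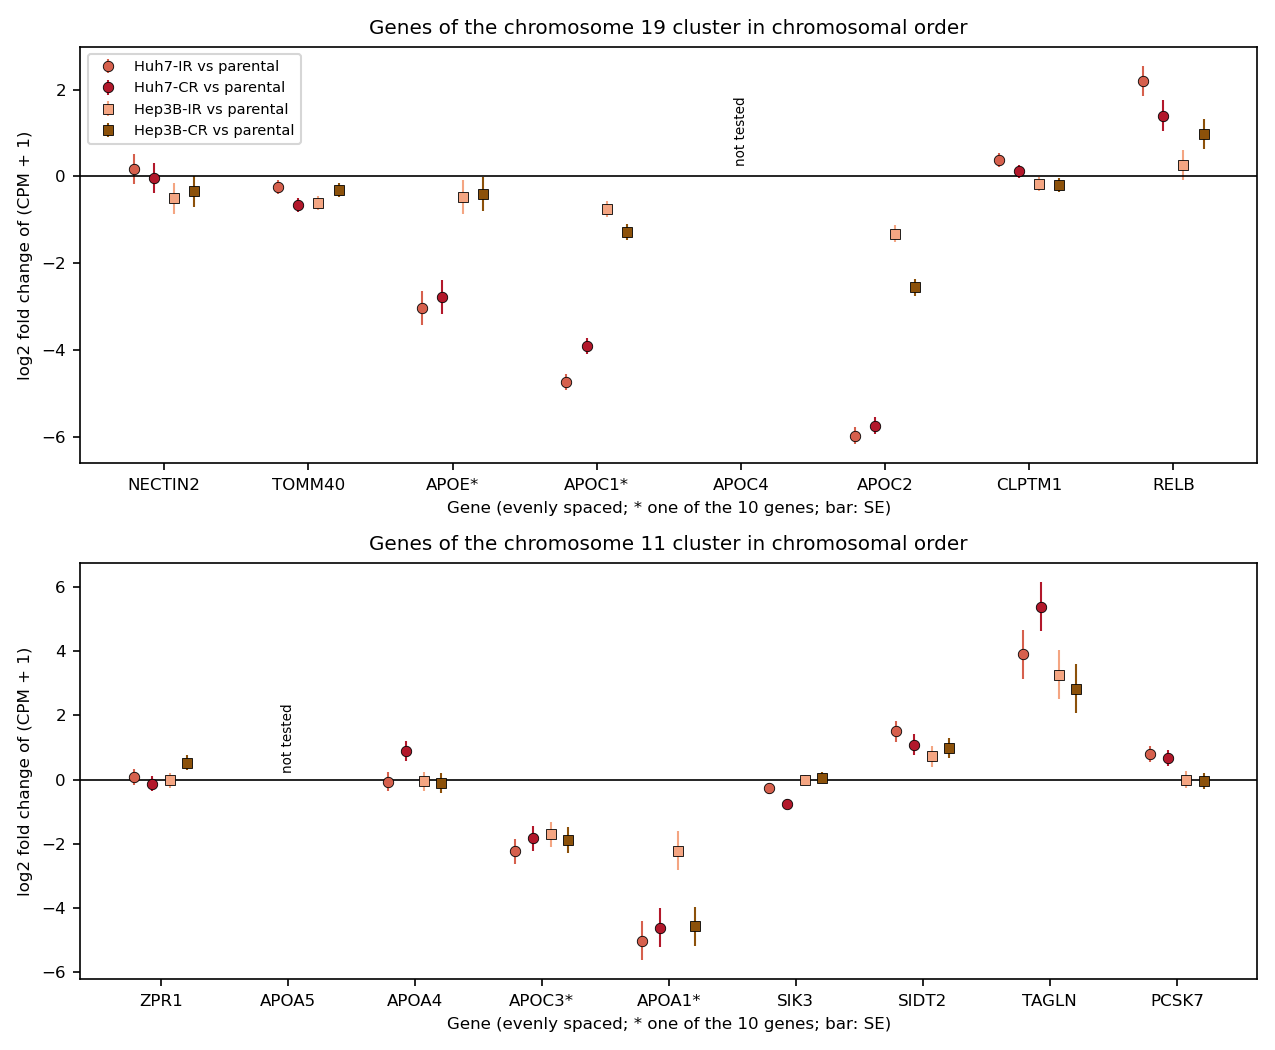
Log2 fold change of (CPM + 1) against parental cells for the genes of the chromosome 19 (top) and chromosome 11 (bottom) clusters in chromosomal order, evenly spaced, with SE bars and the 4 resistant groups as separate symbols. APOC1 and APOC2 lie below 0 in all 4 groups, as do APOC3 and APOA1, and the lowest flanking gene other than an apolipoprotein is SIK3 with -0.75 in Huh7-CR.

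Lists of other genes of lipoprotein metabolism, chosen with earlier results of these data known, held calls in both directions. Their counts are read against the shares of all genes called lower (17.8%, 13.6%, 11.4% and 12.3%) and higher (31.1%, 20.9%, 15.7% and 20%) in IR and CR cells of Huh7 and then of Hep3B. Of the 14 other apolipoproteins, 7 could be tested. In Huh7-IR cells 2 of them were called lower (APOC2, and CLU with -2.56) and 3 higher, led by APOL6 (4.69) and APOL1 (3.25) of the apolipoprotein L family. In CR cells of Huh7 and in IR and CR cells of Hep3B, 2, 1 and 2 were called lower and 4, 2 and 3 higher, and the medians in the 4 groups were 0.33, 0.90, 0.33 and 0.16. CLU, the chaperone clusterin, was at 353 and 349 CPM in Hep3B parental, 211 and 534 CPM in Hep3B-IR and 47.9 and 66.5 CPM in Hep3B-CR libraries, and was called lower in the latter (-2.62).

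Of 15 tested genes of VLDL lipidation and secretion, 3, 2, 1 and 2 were called lower and 3, 3, 1 and 1 higher in the same order of groups, near or below those shares, with medians of -0.23, -0.11, -0.058 and 0.037. DGAT2, the enzyme that makes triglyceride for VLDL, was lower in Huh7-IR (-2.83) and Huh7-CR cells (-1.30), from 67.0 and 58.4 CPM in the parental libraries. The hydrolase AADAC was lower in Huh7-IR (-2.57), Huh7-CR (-1.36) and Hep3B-CR cells (-0.72). MIA2, which helps load large cargo such as lipoproteins into transport vesicles, was higher in all 4 resistant groups (0.83, 0.61, 0.64 and 1.12).

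Of 8 tested genes of HDL formation and remodelling, 3, 3, 1 and 2 were called lower and 1, 1, 1 and 2 higher, with medians of -0.33, -0.67, 0.31 and 0.033. SCARB1, the HDL receptor, was lower in Huh7-IR (-2.09), Huh7-CR (-2.29) and Hep3B-IR cells (-0.93). PON1, an HDL-bound esterase, was lower in Huh7-IR and Huh7-CR cells (-2.79 and -2.92) and scarce in Hep3B. LIPG, endothelial lipase, was higher in Hep3B-IR (3.29) and Hep3B-CR cells (2.61). Of 10 receptor and uptake genes, 5, 3 and 2 were called lower in Huh7-IR, Huh7-CR and Hep3B-CR cells, and 3, 2, 2 and 2 higher in the 4 groups, with medians of -0.69, -0.55, 0.32 and 0.51. VLDLR, the VLDL receptor, was higher in all 4 groups (1.75, 2.14, 1.45 and 1.59).

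Of 4 tested genes of lipoprotein lipase control, 1, 1, 2 and 1 were called lower and 1 higher, in Hep3B-CR cells, with medians of -0.0079, -0.12, -0.93 and -0.29. ANGPTL4, an inhibitor of the lipase, was higher in Hep3B-CR cells (3.28) and ANGPTL8 lower in Hep3B-IR cells (-1.36).

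Of 19 transcription factors that act on apolipoprotein genes, 11, 8, 5 and 8 were called lower and 4, 4, 2 and 4 higher, where 17.8%, 13.6%, 11.4% and 12.3% of all genes were called lower and 31.1%, 20.9%, 15.7% and 20% higher. The higher calls were thus near or below the share of all genes. The medians were -1.29, -0.46, -0.32 and -0.51. HNF4A was lower in Huh7-IR cells (-2.45), at 23.7 and 63.8 CPM against 232 and 203 CPM in parental libraries, and in Huh7-CR cells (-1.28). In Hep3B, HNF4A was at 191 and 198 CPM in parental, 220 and 154 CPM in IR and 119 and 115 CPM in CR libraries, and its differences of -0.082 and -0.73 did not pass. CEBPA, a liver factor of the C/EBP family, was lower in all 4 groups (-4.42, -4.89, -1.43 and -1.27), as was PROX1 (-3.25, -1.74, -1.02 and -1.64). NR5A2 and ONECUT1 were lower in Huh7-IR (-4.40 and -3.04), Huh7-CR (-2.42 and -3.11) and Hep3B-CR cells (-1.45 and -2.09). The line difference passed for CEBPA (-3.30), NR5A2 (-2.52), ONECUT1 (-1.99), HNF4A (-1.46) and PROX1 (-1.17). In the promoter windows on hand, letters of the HNF4 motif were found for MTTP, APOM and APOE. They were not found for APOA2, APOC1, APOH and TM6SF2, and no window was on hand for APOA1, APOB and APOC3. Whether the factor binds at any of these genes was not measured.

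**Figure D5:**
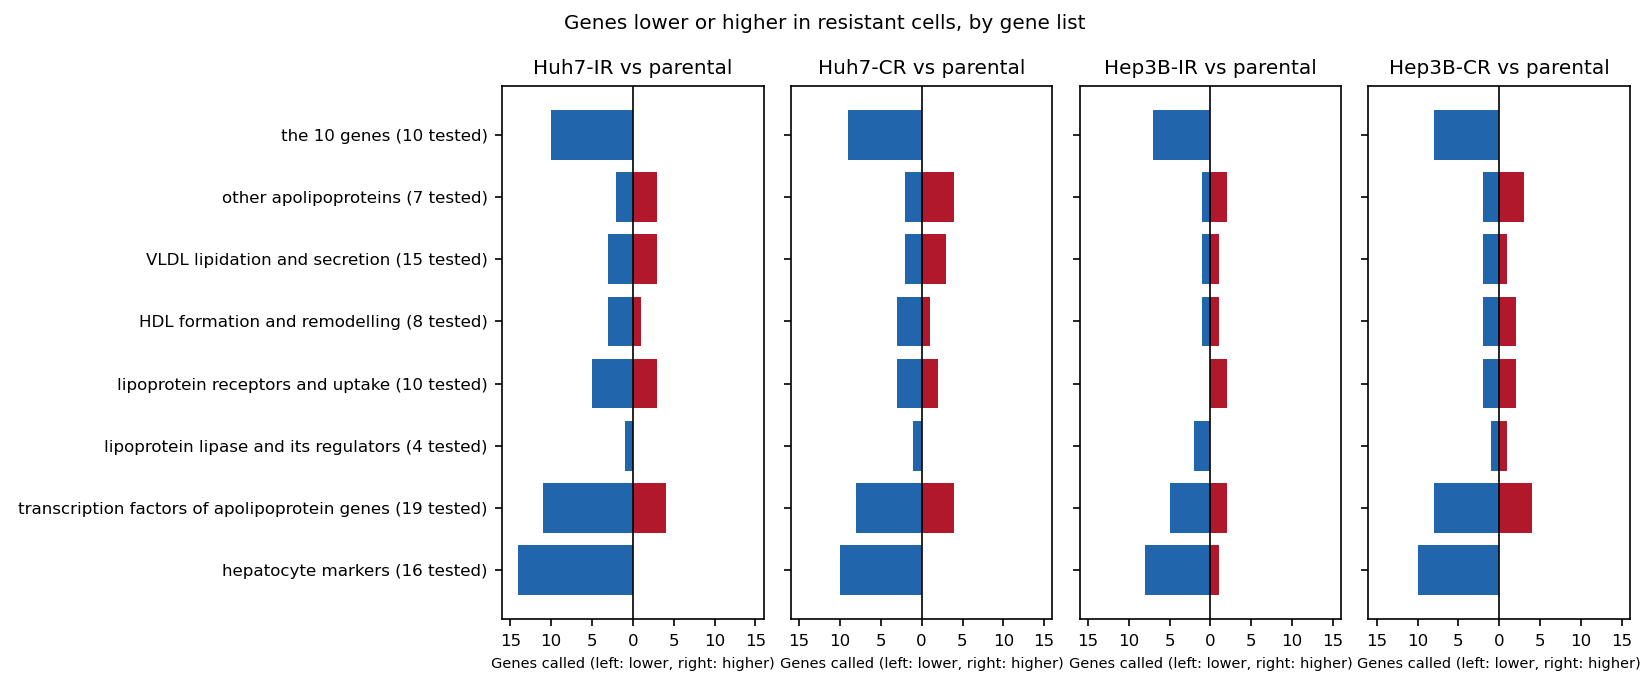
Number of genes called lower (left, blue) and higher (right, red) in each resistant group. Shown are the 10 apolipoprotein and lipoprotein assembly genes, 6 other lists and 16 hepatocyte markers. The 10 genes have bars to the left only, and so do the hepatocyte markers except in Hep3B-IR. The other lists have bars on both sides in most panels, except that of lipoprotein lipase and its regulators.

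Of 16 hepatocyte markers, 14, 10, 8 and 10 were called lower in that order of groups, against 17.8%, 13.6%, 11.4% and 12.3% of all genes, with medians of -4.66, -2.58, -1.64 and -1.83, and 1 was called higher, in Hep3B-IR cells. Their summed level was 924 to 2471 CPM in Huh7-IR, 2986 to 5541 CPM in Huh7-CR, 5186 to 10580 CPM in Hep3B-IR and 3186 to 3329 CPM in Hep3B-CR libraries. AFP, alpha-fetoprotein, was lower in all 4 groups (-10.22, -8.19, -1.74 and -5.03), as were AMBP (-8.60, -6.34, -1.15 and -1.92) and AHSG (-4.62, -4.69, -3.99 and -3.99). Of the other cell types that could be present, 5 of 7 fibroblast markers were tested, of which 4, 4, 1 and 1 were called higher and 1 was lower in each group but Hep3B-CR, with medians of 2.97, 4.21, 0.028 and -0.016. The fibroblast sum was 285 to 337 CPM in Huh7 parental, 313 to 338 CPM in Huh7-IR, 491 to 772 CPM in Huh7-CR, 27.7 to 37.1 CPM in Hep3B parental, 33.2 to 86.9 CPM in Hep3B-IR and 68.6 to 87.1 CPM in Hep3B-CR libraries. COL1A1 was higher in all 4 groups (5.04, 4.21, 4.69 and 5.70) and COL1A2 in Huh7-IR and Huh7-CR cells (5.20 and 5.93). LUM, the proteoglycan lumican, was lower in Huh7-IR and Huh7-CR cells (-2.90 and -0.87), from 277 and 329 CPM in parental to 31.9 and 48.9 CPM in IR and 117 and 231 CPM in CR libraries, and made up most of the Huh7 parental sum, while THY1 was at or under 3 reads over the group in Huh7-IR, Huh7-CR and Hep3B-CR cells. The endothelial sum stayed at or below 6.36 CPM in every library, with CDH5 at or under 3 reads over the group in all 4 resistant groups. The leukocyte sum was 7.63 to 10.9 CPM in the parental and 28.1 to 73.4 CPM in the resistant libraries, with CD68 at 2.58 to 10.3 CPM in the former and 27.6 to 71.9 CPM in the latter. CD14 was at 2.66 and 3.95 CPM in Huh7 parental libraries and at 0.464 and 1.33 CPM in Huh7-IR libraries, while PTPRC, which marks all leukocytes, was at or below 0.262 CPM in the resistant libraries. Of 4 cholangiocyte markers KRT7 was called higher in Huh7-IR (3.68), Huh7-CR (3.64) and Hep3B-CR cells (1.68). Of the intestinal markers, CDX2 and VIL1 were lower in Huh7-IR (-2.81 and -4.33) and Huh7-CR cells (-2.45 and -2.18), and FABP2 was at or under 3 reads over the group in each resistant group. The part of these other cell types in the apolipoprotein values was not tested beyond these levels.

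Across the 16 libraries all pairs of the 10 genes correlated positively, least for TM6SF2 with APOH (0.57). This is a description over points that share groups and depth, and correlations among other genes were not counted. The median Pearson correlation of a gene with the other 9 on log2(CPM + 1) was highest for APOA1 (0.90), APOC1 (0.90) and APOM (0.89) and lowest for TM6SF2 (0.66). The closest pair was APOA2 with APOE (0.98), both of which were higher in Hep3B. Of all other genes, those most like the mean profile of the 10 over the 16 libraries were THBS4 (r = 0.98), F5 (0.98), which codes for coagulation factor V, CEBPA-DT (0.98), a transcript divergent from CEBPA, SYN3 (0.98) and TRIM71 (0.97). The single gene closest to APOC1 was AMBP (0.99), to MTTP it was NID1 (0.99), to APOB PROX1 (0.98), to APOA1 TF (0.98), to APOE HDHD3 (0.99), to APOC3 ACY1 (0.98), to APOA2 MSI1 (0.98), to APOH NREP (0.98), to APOM MIR600HG (0.96) and to TM6SF2 SEMA6A (0.95).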

How the data were processed

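Polyadenylated RNA of 16 libraries was sequenced, and samples were grouped by their titles. The sample labels give a stranded mRNA kit and 2 replicates a group, while the study's methods name a total RNA kit and biological triplicates. The authors aligned the reads to hg19 with STAR, kept unique hits, counted reads over exons of RefSeq mRNAs with QuasR and deposited CPM, that is counts divided by the library total, for 26258 Entrez IDs. The RefSeq gene table gave a symbol for 26111 of them. Whether counting used the strand was not given in the sources used here. The deposited values were whole multiples of 1 read within 0.05 reads in 100.0% of cases, which gave the reads per gene and 46613302 to 76860251 reads per library. A gene without reads can still have an expected count of up to 3, and this limit is for counting error alone.

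The main test was limma (version 3.58.1, under R 4.3.3) on log2(CPM + 1), with a trend of variance on mean level and one spread shared by all 8 groups. It covered the 15019 genes that 2 or more libraries held at 1 CPM or above. P-values were adjusted by Benjamini-Hochberg over all 15019 genes, and calls needed an adjusted p below 0.05 and a change of 0.58 or more in size on the log2 scale, the fold threshold of the study. Resistant and DMSO cells were compared with parental cells of their line, IR with CR cells, the parental lines with each other, and the mean resistant change between lines by an interaction contrast. SE and 95% intervals are those of limma. The fits were tested on simulated data with known changes.

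All 10 members are named in each comparison. From every other list up to 4 genes are named, those called in at least 1 resistant comparison with the largest mean change in size, and in the transcription factor list also HNF4A. Some genes and a motif that these rules cover are not reported here. Cluster neighbors are named whatever their values, as are the genes that correlate best with the members. The members and lists were chosen with earlier results of these data known. Gene positions and lengths are from GENCODE on GRCh37 and promoters from RefSeq on GRCh38.p14.

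The recovered reads were also tested with the quasi-likelihood test of edgeR 4.0.16 and with DESeq2 1.42.0. Other alternatives were TMM and quantile scaling, pseudocounts of 0.25 and 4 CPM, no filter (23311 genes) or at least 5 CPM (12786 genes), fits of the line or of the groups compared, DMSO as reference, unadjusted p, a replicate block, a correction for GC content (14423 genes) and leaving out each library. Over all genes, replicates with the same number did not deviate together in every pair of groups (correlations of -0.22 to 0.44 in Huh7 and -0.16 to 0.26 in Hep3B). The numbers were thus not taken as pairs in the main fit. For APOA1, APOA2, APOM, APOB, APOC3 and APOE, however, replicate 1 lay below replicate 2 in every Hep3B group. This was not so for APOC1, APOH, MTTP and TM6SF2. Whether libraries of the same number share a batch was not tested.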

Additional observations from a re-analysis of the deposited data

Results flagged for a closer look

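The change of IR and CR cells against parental cells differed between the lines for 5 of the 10 genes by the interaction contrast of limma, each with a deeper fall in Huh7. The log2 difference, Huh7 minus Hep3B, was -5.43 for MTTP, -3.73 for APOA2, -3.43 for APOB, -3.30 for APOC1 and -2.46 for APOE. Of all genes tested, 13.1% were called lower in this contrast. MTTP, APOA2 and APOE also differed between the parental lines, MTTP being higher and APOA2 and APOE lower in Huh7 (1.99, -4.84 and -1.52), and the part of these starting levels in the line difference was not tested. With only 2 libraries a group, outlying libraries were not looked for within groups.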

How the results depend on the processing

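Of 1900 values of single genes under the alternatives, 1712 kept direction and side of the threshold, 75 no longer passed, 72 newly passed and 41 changed sign, of which 0 had a call in either fit. Counts of genes called stayed within 1.5 times for both Huh7 resistant groups and the parental comparison (4 of 10) under every alternative. Only the groups compared in the fit gave 4 genes in Hep3B-IR cells and 0 each in Huh7 DMSO, Huh7-IR against Huh7-CR and Hep3B-IR against Hep3B-CR, and the latter had 0 without the filter too. Only the libraries of the line gave 0 in Huh7 DMSO, 1 in Hep3B DMSO and 0 in Huh7-IR against Huh7-CR, which had 1 with a pseudocount of 4 CPM. In Huh7 DMSO cells DESeq2 called 3, an unadjusted p 5, and the replicate block, with or without GC correction, 2. In Hep3B DMSO cells DESeq2 called 2, quantile scaling 1, a pseudocount of 4 CPM 3, GC correction 1, an unadjusted p 7, and the replicate block 3 (2 with GC correction). DESeq2 called 8 line differences. Shares of all genes were not counted for most alternatives, so these counts are read only against those of the main test. The block also called APOB in Hep3B-IR cells (8 genes, adjusted p = 0.0116). Replicate 1 of APOB lay below replicate 2 in every Hep3B group, and the labels link libraries of the same number only by that number. Leaving out 1 library gave 9 genes throughout in Huh7-IR and in Huh7-CR, 2 to 8 in Hep3B-IR, 5 to 7 in Hep3B-CR, 0 to 4 in Huh7 DMSO, 0 in Hep3B DMSO, 0 to 2 for Huh7-IR against Huh7-CR, 1 to 3 for Hep3B-IR against Hep3B-CR, 4 for the parental lines and 4 to 6 for the line difference, and a group left with 1 library was assumed to vary like the others.

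The sign changes were of values without a call. TM6SF2 in Hep3B-IR was -0.016 with edgeR, -0.032 with DESeq2, -0.0091 with TMM, -0.26 with quantile scaling, -0.13 against DMSO and -0.075 with GC correction (block or not). With quantile scaling it was -0.0093 in Hep3B-CR and -0.045 in Hep3B DMSO, and -0.091 in the latter with GC correction (block or not). With GC correction, block or not, APOC1 in Huh7 DMSO was -0.029, APOA2 in Huh7-IR against Huh7-CR -0.032, APOE in Hep3B-IR against Hep3B-CR 0.35 and APOC3 between the parental lines 0.16. That APOE value was 0.041 with edgeR and 0.045 with DESeq2, and that of APOC3 0.070, 0.062, 0.061 and 0.17 with edgeR, DESeq2, TMM and quantile scaling. Against DMSO the line differences of APOA1 and APOC3 were 0.049 and 0.033. Leaving out 1 library gave -0.051 to 0.11 for TM6SF2 in Hep3B-IR, -0.33 to 0.91 for APOB in Huh7 DMSO, -0.0064 to 0.20 for APOC1 and -0.10 to 0.084 for APOC3 between the parental lines, and, for IR against CR, -0.042 to 0.25 for APOA2 and -1.23 to 0.28 for APOH in Huh7 and -0.40 to 0.29 for APOE, -0.19 to 0.87 for APOM, -0.14 to 0.49 for APOC3 and -0.70 to 0.32 for MTTP in Hep3B. The causes were not tested.

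Limits are the 2 libraries a group, the few reads of APOC3 and TM6SF2, whose fold changes depend on the pseudocount, and replicate differences that followed GC content. Their Spearman correlation over genes was 0.53 for the parental and -0.52 for the DMSO libraries of Huh7 and -0.39 for the DMSO libraries of Hep3B.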
